A study of Homo sapiens with 2 samples.

Results

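EGR1-enriched intervals were described at 7 genes that encode factors binding GC-rich DNA: KLF2, KLF4, KLF6, KLF9, KLF10, KLF13 and SP1. The members were all intervals of the authors' list (build GRCh37) that reached within 10 kb of these genes, and there were 15 of them among 7709 intervals, or 0.195% of the list. The data came from chromatin immunoprecipitation and sequencing (ChIP-seq), which recovers the DNA fragments held by an antibody, here one against EGR1. Both libraries were made from t-HESC, a line of endometrial stromal cells (the connective tissue of the lining of the uterus) that was immortalised for culture. The cells were grown in DMEM/F12 medium with fetal bovine serum and puromycin and received no treatment. There was 1 EGR1 library and 1 input library, without replicates, so each value describes 1 library and no test between samples was possible. The depth is unknown, since read totals were not used here. The files hold no expression values, so the cell type of the line could not be checked against marker genes.

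EGR1 is a zinc-finger transcription factor of the immediate early class, made soon after a cell meets serum or a growth factor. Krüppel-like factors (KLFs) and SP1 are zinc-finger proteins too, and they bind GC boxes and CACCC boxes, GC-rich letters that can overlap those bound by EGR1. In the uterus, KLF9 is known as a partner of the progesterone receptor. The question addressed was where EGR1 was bound in these cells.

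Promoter sequences are shown first, because the genes encode factors that read such DNA. Each gene had an interval over its start or within 1 kb of it, but the printed bases were not chosen as the DNA under these intervals. The sequences run from 250 bases before to 50 bases after a gene start in RefSeq (build GRCh38.p14), 5′ to 3′ on the gene's strand. RefSeq promoters were matched by symbol for 6 of the 7 genes, with 2 starts for SP1. Capitals mark the EGR1 motif, searched as GCGTGGGCG and GCGGGGGCG, and the GC box, searched as GGGGCGGGG, on both strands. KLF2, KLF6 and the second SP1 start are shown for their EGR1 letters, KLF4 for its pair of GC boxes, and KLF9 for having neither.
KLF2: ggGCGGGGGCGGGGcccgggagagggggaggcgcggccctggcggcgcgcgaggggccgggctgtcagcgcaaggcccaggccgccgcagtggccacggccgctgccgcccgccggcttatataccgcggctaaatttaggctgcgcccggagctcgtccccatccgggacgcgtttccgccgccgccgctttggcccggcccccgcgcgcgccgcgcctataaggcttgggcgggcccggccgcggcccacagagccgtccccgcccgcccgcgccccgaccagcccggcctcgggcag
KLF6: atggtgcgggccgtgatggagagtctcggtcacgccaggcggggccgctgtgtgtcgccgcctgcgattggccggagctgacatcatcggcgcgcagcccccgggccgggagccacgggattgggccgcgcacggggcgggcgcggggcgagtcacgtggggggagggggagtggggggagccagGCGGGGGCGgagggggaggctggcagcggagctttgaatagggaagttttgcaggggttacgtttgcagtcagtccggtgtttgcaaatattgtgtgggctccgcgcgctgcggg
SP1, second start: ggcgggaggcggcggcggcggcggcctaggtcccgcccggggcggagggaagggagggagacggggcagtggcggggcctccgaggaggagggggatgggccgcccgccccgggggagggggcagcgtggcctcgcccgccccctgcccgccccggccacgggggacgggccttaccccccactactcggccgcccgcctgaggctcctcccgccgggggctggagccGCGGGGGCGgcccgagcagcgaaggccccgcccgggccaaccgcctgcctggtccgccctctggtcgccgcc
KLF4: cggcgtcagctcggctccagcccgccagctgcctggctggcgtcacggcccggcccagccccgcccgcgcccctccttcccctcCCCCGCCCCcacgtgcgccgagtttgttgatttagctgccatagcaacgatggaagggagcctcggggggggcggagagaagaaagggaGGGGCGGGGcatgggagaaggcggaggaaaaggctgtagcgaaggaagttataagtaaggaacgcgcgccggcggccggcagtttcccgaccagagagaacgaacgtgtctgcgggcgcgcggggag
KLF9: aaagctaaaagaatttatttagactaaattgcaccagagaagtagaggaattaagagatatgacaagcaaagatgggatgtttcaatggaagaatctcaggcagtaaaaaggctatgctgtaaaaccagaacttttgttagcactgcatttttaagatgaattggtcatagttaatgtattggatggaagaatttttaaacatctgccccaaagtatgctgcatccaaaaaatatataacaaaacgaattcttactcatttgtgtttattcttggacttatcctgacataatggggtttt

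Of these 7 promoters, 6 were above the median GC content of RefSeq promoters. The GC content was 83.3% at the second SP1 start, 80.7% at KLF2, 78.3% at KLF13, 70.7% at KLF6, 69% at KLF4 and 60.7% at the first SP1 start. The median of all 35114 RefSeq promoters of this length was 58.7%. KLF9 stood apart with 32.7% GC, lower than all but 2.35% of promoters, and with 1 CpG dinucleotide in 300 bases against 49 at KLF2. The EGR1 motif was found in 3 of the 7 promoters (42.9%) and in 5.77% of all promoters. All 3 matches had the letters GCGGGGGCG. The match lay 65 bases before the start at KLF6, 22 bases before the second start of SP1 and 248 bases before the start at KLF2. In KLF2 it shared 6 bases with a GC box. The GC box was found in 4 of the 7 promoters (57.1%) and in 15.7% of all promoters. KLF4 had 2 GC boxes, at 166 and 77 bases before the start. The core of the GC box, GGGCGG, was in 6 of the 7 promoters (85.7%) and in 45% of all. The CACCC core, searched as CCACCC, was in 1 of the 7 (14.3%, KLF13) and in 34.3% of all. Base composition goes with these letters: among the 7118 promoters with at least 70% GC, 19.8% held the EGR1 motif, 43.8% the GC box, 92.7% its core and 45.1% the CACCC core. A match describes the letters and is not shown to be a bound site.

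**Figure D1:**
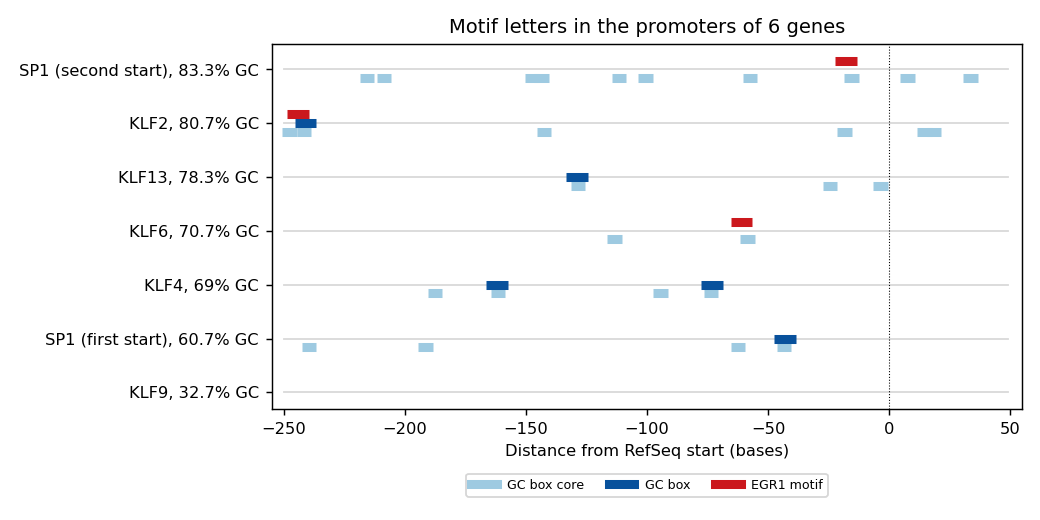
Positions of motif letters (red, EGR1 motif; dark blue, GC box; light blue, its core GGGCGG) in the RefSeq promoters of 6 genes, against distance from the RefSeq start in bases, ordered by GC content. The second SP1 start holds 10 core matches and KLF9 holds no match of any of the 3 kinds.

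The printed promoters and the intervals come from different builds and were not laid over each other. Gene ends also differ between sources: KLF2 spans 2689 bp in the GRCh37 coordinates used for the intervals and 3860 bp in RefSeq. The spans were 5188 and 6942 bp at KLF10, 35799 and 36271 bp at SP1, and 9286 and 9214 bp at KLF6. Those of KLF4, KLF9 and KLF13 were closer. At which end they differ was not analysed, and placement upstream, over the start or inside depends on the start used. Distances below are from the 5′ end of the GRCh37 span, with the strand from the RefSeq table, except for KLF10, whose reverse strand is background knowledge.

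All 7 genes had at least 1 EGR1 interval within 10 kb. KLF2 and KLF6 had 1 each, KLF4 and KLF13 had 2 each, and KLF9, KLF10 and SP1 had 3 each. For comparison, the span of every chromosome between its first and last interval was divided into tiles as long as each gene's window. At least 1 interval was present in 4.70% of tiles of the KLF2 length, 5.10% for KLF4, 5.89% for KLF6, 9.35% for KLF9, 5.17% for KLF10, 19.6% for KLF13 and 10.2% for SP1. At least 2 intervals were in 1.16% of tiles of the KLF4 length and 7.71% for KLF13. At least 3 were in 0.778% of tiles of the KLF9 length, 0.269% for KLF10 and 0.940% for SP1. Tiles were laid without regard to genes, since gene models on GRCh37 were not used here, so these shares are no background for promoters. The genes were also chosen with earlier results of these data known. The 7 windows, 337 kb in all, held 4.45 intervals per 100 kb, against 0.265 over the whole list. The exact Poisson 95% interval, 2.49 to 7.35, covers counting error only. It treats neighbouring intervals as independent and takes no account of how the genes were chosen. Chromosome 19, which holds KLF2, had 1.15 per 100 kb, and the chromosomes of the other genes had 0.172 to 0.314. Tiles of all chromosomes are thus a low comparison for KLF2.

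Each of the 7 genes had an interval over its start or within 1 kb of it, 8 intervals in all. Of tiles of 2001 bp laid without regard to genes, 0.569% held an interval. That share is no background for gene starts, for which the share with an interval was not computed. By the starts used here, 9 of the 15 intervals lay upstream, 2 covered the start, 4 lay inside the gene and 0 lay in the 10 kb beyond the 3′ end. No interval reached further than 1981 bp into a gene. At the density of the whole list, the 183 kb of gene sequence beyond the first 2 kb would hold 0.484 intervals and the 70 kb of 3′ flank 0.185, so a count of 0 there is near the background. KLF13 spans 109 kb, and both of its intervals were within 2 kb of the start.

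**Figure D2:**
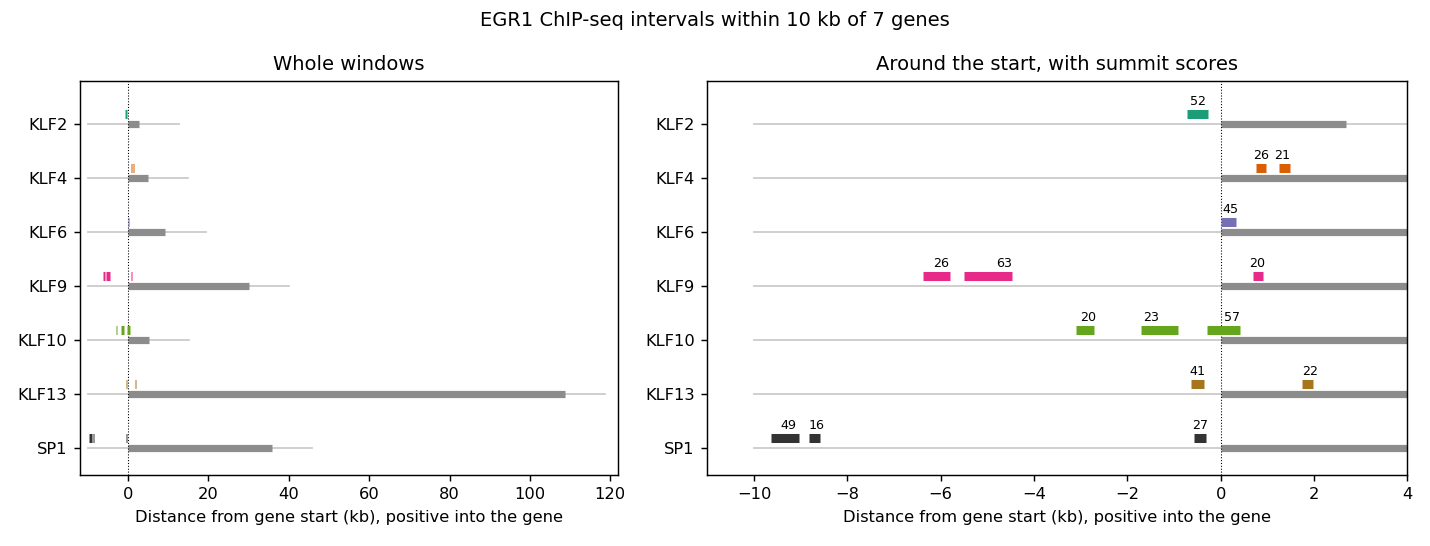
EGR1 intervals (coloured bars) against distance from the gene start in kb, for whole windows (left) and around the start (right, with summit scores); thick grey lines are genes and thin lines the 10 kb flanks. The 15 intervals sit between 9632 bp upstream and 1981 bp inside, and the bodies of KLF13 and SP1 beyond that are empty.

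Scores are the authors' own whole numbers, 1 per summit and of unknown unit, and serve only to rank intervals within the list. The 15 scores ran from 16 to 63 with a median of 26, which equals the median of the whole list (quartiles 20 and 37, highest 336). A score at or above the list median was reached by 9 of the 15, against 51.0% of all intervals, and the 90th percentile of 57 by 2 of the 15, against 10.2%. Of the 15, 0 exceeded 100, against 2.13% of all intervals. Taking the highest score of each gene, the order was KLF9 with 63, KLF10 with 57, KLF2 with 52, SP1 with 49, KLF6 with 45, KLF13 with 41 and KLF4 with 26. With 1 library, neighbours in this order cannot be told apart.

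**Figure D3:**
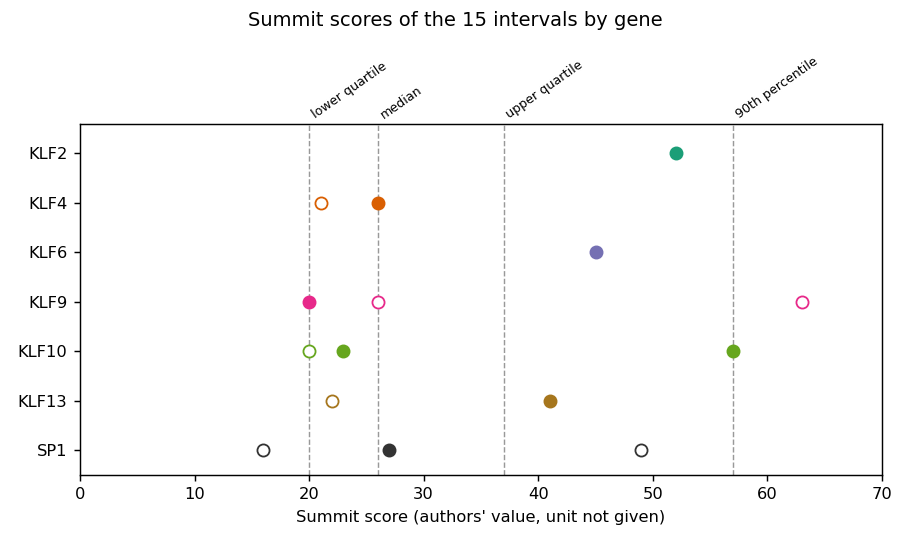
Summit scores of the 15 intervals by gene; filled points are intervals over the start or within 1 kb of it, open points lie further away, and dashed lines give quartiles, median and 90th percentile of all 7709 scores. KLF9 and SP1 have their highest scores, 63 and 49, in open points.

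KLF10, also called TIEG1, is a repressor that is induced early by TGF-beta. It had 3 intervals on chromosome 8, all at the start used here or upstream of it. RefSeq gives KLF10 a longer span, so with a start further up some could lie inside the gene. The highest, from 103665771 to 103666477, covered the start, scored 57 and had its summit 240 bp inside the gene. The next, at positions 103667107 to 103667898, had a score of 23 and a summit 1488 bp upstream. The third, at positions 103668902 to 103669285, had a score of 20 and a summit 2832 bp upstream. Scores thus fell with distance from the start used here, though 23 and 20 are close and the order rests on that start and 1 library. The gaps between them were 629 and 1003 bp, and whether they are 1 enriched stretch that was divided was not tested.

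KLF6, a factor of many tissues that is induced in injury, had 1 interval on chromosome 10, at positions 3827141 to 3827473. It ended at the start base and ran 332 bp into the gene, with a score of 45 that 16.9% of intervals reached. It was isolated: the nearest other intervals lay 150 kb from the gene on the upstream side and 707 kb on the downstream side. Within 500 kb it had the highest score of 2 intervals.

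KLF2, known for its role in the endothelium and in T cell quiescence, had 1 interval on chromosome 19, at positions 16434926 to 16435375. It lay 276 to 725 bp upstream of the start and had a score of 52, which 12.3% of intervals reached. On that dense chromosome it ranked 79 of 674. In RefSeq the next gene upstream is the long noncoding RNA KLF2-DT, whose distance from the interval was not analysed here. KLF13, a close relative of KLF9, had an interval on chromosome 15 at a like distance, 352 to 642 bp upstream, at positions 31618441 to 31618731. Its score was 41. A second interval, at positions 31620819 to 31621064, lay 1736 to 1981 bp inside the gene with a score of 22.

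KLF4, one of the factors used to reprogram cells to pluripotency, had its intervals inside the gene only, and both were narrow. The one nearer the start, chromosome 9 positions 110251077 to 110251292, scored 26 with its summit 863 bp inside. The other, positions 110250558 to 110250791, scored 21 with its summit 1327 bp inside. Widths were 216 and 234 bp, close to the smallest of the list, 207 bp. The pair was separated by 285 bp. On the upstream side the next interval was 1444 kb from the gene, and on the downstream side one with a score of 84 lay 202 kb away.

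At KLF9 the highest score lay away from the start. That interval, from 73034042 to 73035081 of chromosome 9, was 4469 to 5508 bp upstream and 1040 bp wide, and its score of 63 was the highest of the 15. It ranked 31 of 335 on its chromosome, and 97.9% of all intervals were narrower. A neighbour 294 bp further upstream, at positions 73035376 to 73035943, had a score of 26. The interval near the start, at positions 73028660 to 73028884, lay 689 to 913 bp inside the gene with a score of 20, below the upstream scores. RefSeq places the noncoding RNA KLF9-DT as overlapping KLF9. Which gene the upstream intervals belong to was not analysed here.

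SP1, a factor of GC-box promoters in most cells, also had its highest score away from the start. Its start-proximal interval on chromosome 12, at positions 53773848 to 53774105, lay 323 to 580 bp upstream of the start used here, with a score of 27. RefSeq gives SP1 a longer span and another start, so with a start further up this interval could cover a start or lie inside the gene. A pair lay further up. Its outer interval, from 53764796 to 53765396, scored 49, and the inner one, from 53765600 to 53765833, scored 16, the lowest of the 15. The outer one reached 9632 bp upstream and was the nearest to the 10 kb limit of all members. Outside that limit the nearest interval to any of the genes was 27.9 kb downstream of KLF2, with a score of 45. The next gene upstream of SP1 in RefSeq is SP7, another member of the family.

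Widths ran from 216 bp at KLF4 to 1040 bp at KLF9, with a median of 333 bp against 343 bp in the whole list. In 8 of the 15 intervals another interval lay within 1 kb, against 27.3% of all intervals, and joining such neighbours left 11 sites. The pairs were at KLF4, KLF9, KLF10 and SP1. Summits were exact multiples of 32 bp in 12 of the 15. The share in the whole list was not computed, and the accuracy of the summit distances is unknown.

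**Figure D4:**
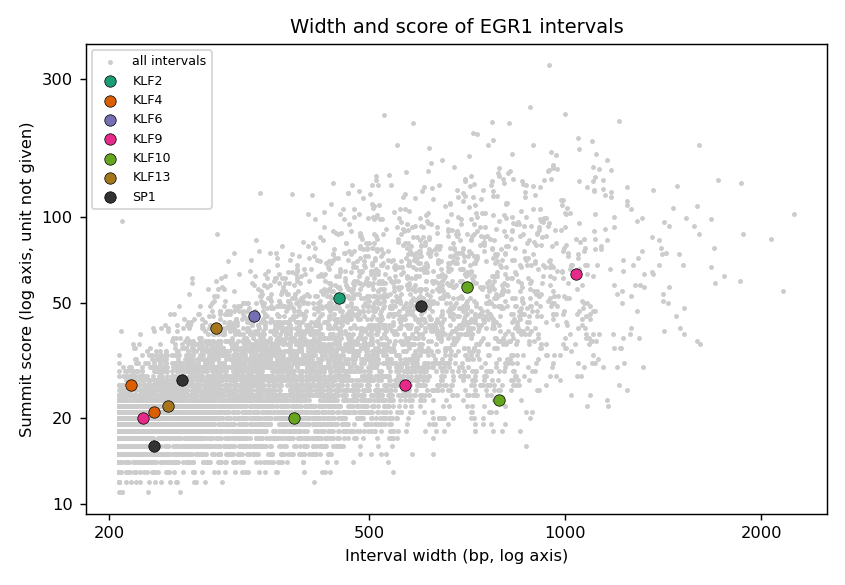
Summit score against interval width in bp (both log axes) for all 7709 intervals (grey) and the 15 at the 7 genes (coloured). The member intervals lie within the grey cloud, from KLF4 at 216 bp to KLF9 at 1040 bp.

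The wider family was taken for its sequence alone. Of 31 KLF, SP and EGR symbols, 25 had a RefSeq promoter, 41 promoters in all. The EGR1 motif was in 6 of 27 KLF promoters (22.2%), 2 of 9 SP promoters (22.2%) and 0 of 5 EGR promoters. These counts include the member promoters described above. The share was 5.77% over all promoters and 19.8% over those with at least 70% GC. Of the 41 family promoters, KLF16 had the highest GC content, 86%, with 1 EGR1 motif and 2 GC boxes. Intervals at the other family genes were not analysed here.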

How the data were processed

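Untreated t-HESC cells gave 1 EGR1 ChIP-seq library and 1 input library. Per the labels' protocols, fragments were size-selected and amplified by PCR; the submitters' processing notes name BWA, MACS, MACS2 2.1.0 and the build GRCh37.p2, without order, options or threshold. The interval and summit positions (unit: other) and 1 score per summit were used as deposited by the authors, called on 1 library. The score's unit is not given. Depth is unknown, as read counts were not used here.

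Interval starts were read as in BED files and are printed 1-based. Summit positions were taken unchanged, so summit distances may be off by 1 bp against the edges. An interval was a member when its edge lay within 10 kb of a gene span on GRCh37. All 7 genes and all 15 intervals are named. The members and lists were chosen with earlier results of these data known. Tiles, densities (exact Poisson 95% intervals) and motif matches are descriptions without a test. Promoters came from RefSeq on GRCh38.p14, and no position was converted between builds. Counting and motif search were tested on simulated data. The work was done in Python 3.11.15 with pandas 2.3.3, numpy 2.4.6, matplotlib 3.10.9 and scipy 1.17.1. Alternatives varied distance, score limit, joining and motif letters.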

Additional observations from a re-analysis of the deposited data

How the results depend on the processing

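The number of genes with an interval was 7 within 5 kb, within 20 kb, by summit and at a score at or above the list median. At or above the 90th percentile it was 2, KLF9 and KLF10. The 15 intervals became 9 at or above the list median, 12 within 5 kb and 15 within 20 kb. The median score of 26 was 41 when neighbours within 1 kb were joined and the highest score of each site was kept, which can raise it by construction. Genes with an interval at the start numbered 7 within 1 kb, within 2 kb and by summit, and 2 when the interval had to cover the start. The share of promoters with the EGR1 motif, 42.9%, was 0% with GCGTGGGCG alone, against 0.795% of all promoters. With GCGNGGGNG it was 57.1%, against 18.8% of all and 53.1% of those with at least 70% GC. The last 2 sets are unlike, since KLF4, KLF9 and the first SP1 start were below 70% GC. SP1 kept 1 of its 3 intervals within 5 kb, with a score of 27. No paired analysis was possible because there is 1 ChIP library. The lack of replicates and of depth limits all values to this library.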
